A study of Homo sapiens with 6 samples.

Results

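The genes of the human mitochondrial genome, chromosome MT, were followed in HCCLM3, a line of human hepatocellular carcinoma cells of high metastatic potential. They were taken as every gene of the deposited count table whose symbol starts with MT-, which gave 37 of 34234 genes: 13 messenger, 2 ribosomal and 22 transfer RNA genes. Cells received a lentivirus with a short hairpin RNA against ATXN7L3 (shATXN7L3, 3 libraries) or with a control hairpin (shcontrol, 3 libraries). All cells were HCCLM3 cells in DMEM with fetal bovine serum that had been exposed to virus, and ATXN7L3 was targeted by a single labelled hairpin. ATXN7L3 encodes an adaptor subunit of the histone H2B deubiquitinase modules that are built around USP22 and related enzymes. Per the labels, total RNA came from a Trizol extraction, and RNA with a poly-A tail was selected from it. The labels do not say that the 3 libraries of a group were separate cultures, so the spread that p-values rest on may be no more than technical.

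Mitochondrial DNA is a small circle that lies in many copies in every cell. Both of its strands are transcribed, by the polymerase POLRMT with the factors TFAM and TFB2M, into long RNAs that carry many genes. Transfer RNAs lie between most of the messenger and ribosomal genes, and RNase P and the endonuclease ELAC2 cut them out at their ends, which also frees the RNAs on either side. The messenger RNAs encode core subunits of respiratory complexes I, III, IV and V, and most of them receive a short poly-A tail. Mature transfer RNAs end in CCA and carry no poly-A tail, so in poly-A-selected RNA their counts can also come from reads of uncut or partly cut RNA that runs across them. On the deposited map 28 genes lie on the plus strand and 9 on the minus strand, where MT-ND6 is the only messenger gene.

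The libraries held 22757031 to 23915783 counts in shATXN7L3 cells and 22376867 to 23033763 in shcontrol cells. ATXN7L3 itself, on chromosome 17, had 20.6, 20.5 and 19.5 CPM in shATXN7L3 libraries and 36.4, 37.5 and 37.5 CPM in shcontrol libraries. Its log2 fold change was -0.88 ± 0.06 (standard error; adjusted p = 6.69e-10, edgeR). CPM stands for counts of a gene per 1e+06 counts of its library, scaled with edgeR's TMM factors, fold changes are shATXN7L3 over shcontrol on the log2 scale, and errors after a fold change are standard errors. Replicates differed more among shcontrol libraries (3.6 to 6.52 chi-square per gene) than among shATXN7L3 libraries (1.59 to 2.18). The hepatocyte-lineage markers ALB, AFP, HNF4A and TF (the nuclear transferrin gene) were expressed, AFP with only 44 to 72 counts in a library. All 4 fell in shATXN7L3 cells (adjusted p under 0.05, edgeR), as did 12% of all tested genes. Their median log2 fold change was -0.975. The summed level over the 5 markers was 94.0 to 97.3 CPM in shATXN7L3 libraries and 296 to 340.5 CPM in shcontrol libraries. APOA1, also on that list, had 2 to 12 counts in a library and was not tested. Of 14 markers of leukocytes, endothelium and fibroblasts, 5 passed the filter on low counts, CD68, LYZ, PECAM1, KDR and LUM, whereas PTPRC, CD3E, CDH5, COL3A1 and PDGFRB had at most 7 counts in any library. The leukocyte markers summed to 120.04 to 125 CPM in shATXN7L3 libraries against 89.9 to 109.5 CPM in shcontrol libraries, nearly all of it CD68, which rose (0.28 ± 0.06, adjusted p = 0.00152, edgeR), while LYZ, with 2 to 26 counts in a library, fell. The sums were 42.4 to 44.4 CPM in shATXN7L3 libraries against 57.2 to 62.1 CPM in shcontrol libraries for endothelial markers, and 5.35 to 5.90 CPM in shATXN7L3 libraries against 23.8 to 27.9 CPM in shcontrol libraries for fibroblast markers. Their part in the results on mitochondrial genes was not tested.

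Mitochondrial genes took a share of all counts that differed between groups by less than the spread of the libraries, and within it several parts did not overlap between the groups. The 37 genes held 22.2, 22.4 and 22.7% of all counts in shATXN7L3 libraries, against 22.8, 22.9 and 21.7% in shcontrol libraries. The means were 22.4 ± 0.23% and 22.5 ± 0.68% (SD, n = 3 each), a difference of -0.044 percentage points (two-sided exact permutation p = 0.9), and shcontrol replicate 3 was the lowest library. Counting error is small at this depth: the 95% Wilson interval was 22.198 to 22.232% in shATXN7L3 replicate 1, and intervals of this kind cover counting error only. Messenger genes made up 93.2, 93.5 and 93.5% of mitochondrial counts in shATXN7L3 libraries and 93.6, 93.4 and 93.1% in shcontrol libraries, with overlapping groups. In bulk RNA, fewer mitochondria in a cell and less RNA from each cannot be told apart.

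Ribosomal RNA genes held 2.61, 2.53 and 2.37% of the mitochondrial counts in shATXN7L3 libraries and 2.85, 2.75 and 2.95% in shcontrol libraries, with every shATXN7L3 library below every shcontrol library. Transfer RNA genes held 4.16, 3.94 and 4.17% in shATXN7L3 libraries against 3.50, 3.85 and 3.95% in shcontrol libraries, and these groups overlapped. MT-TK, the lysine transfer RNA, held more counts than any other gene of this class. Without it, a split chosen after its values were seen, the transfer RNA genes held 2.77, 2.76 and 2.81% in shATXN7L3 libraries and 2.49, 2.60 and 2.60% in shcontrol libraries, with no overlap. MT-ND6 took 6.31, 6.16 and 6.53% of the messenger counts in shATXN7L3 libraries and 5.75, 5.81 and 5.90% in shcontrol libraries. Whether counting used strand is not given, so its counts may include reads of RNA from the plus strand. In the exact permutation test 3 libraries against 3 cannot go below p = 0.1, the value reached by the ribosomal share and the MT-ND6 share. Adjusted over the 14 shares and ratios computed, that p is 0.156, so no share passed a threshold of 0.05.

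**Figure D1:**
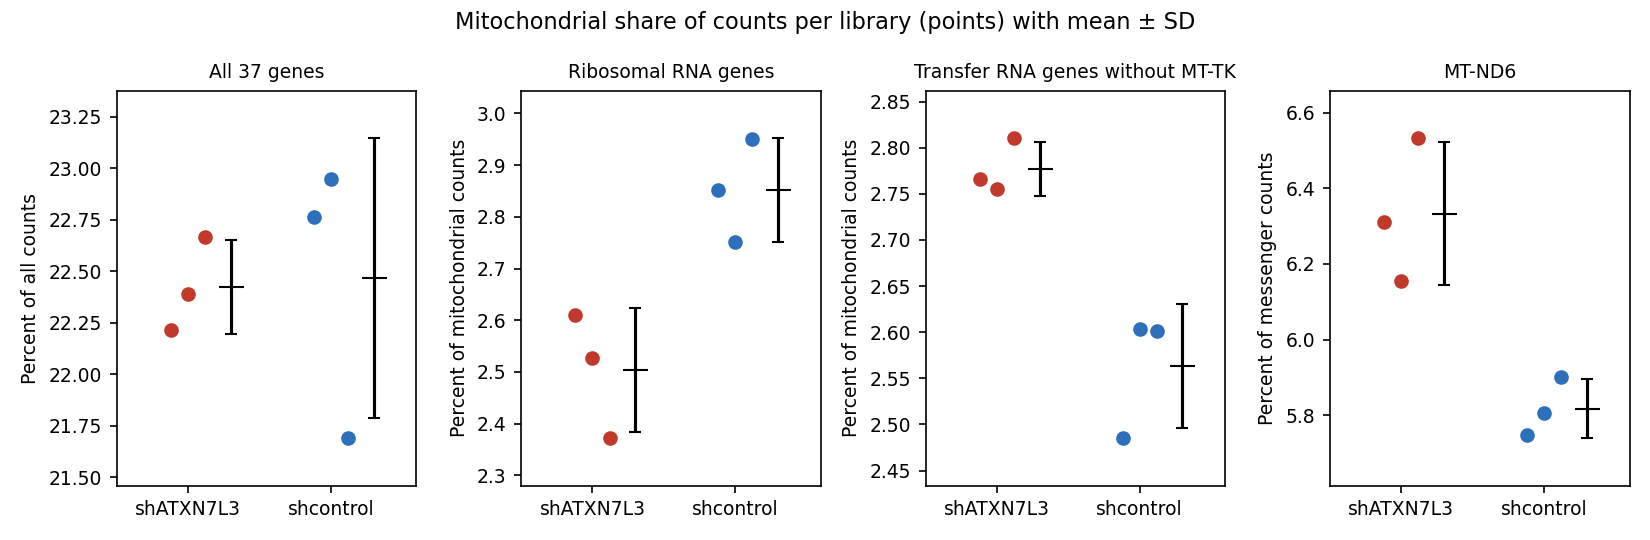
Share of counts in each library (points, in percent) for shATXN7L3 and shcontrol cells, with the mean and SD of 3 libraries beside them. The axes do not start at 0. The share of all 37 genes overlaps between groups around 22.4% and 22.5%, while the shares of ribosomal genes, of transfer genes without MT-TK, and of MT-ND6 do not overlap.

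Tested gene by gene in a fit over all 17935 genes that passed the filter on low counts, 13 of the 37 mitochondrial genes rose and 4 fell in shATXN7L3 cells (adjusted p under 0.05), and 20 did not pass. Of all tested genes 12.2% rose and 12% fell, 24.2% in either direction. Of these calls 50.4% were rises, against 64.8% with library size alone or with the mitochondrial messenger total as scale, under either of which 17 of the 37 genes rose and 3 fell. Among the 9478 genes with a mean of at least 10 CPM, a class that holds all 37, 15.8% rose and 16.2% fell. The median log2 fold change was 0.06 over the 37 genes and 0.01 over all tested genes. Fold changes were small, between -0.29 and 0.40. The shATXN7L3 and shcontrol libraries did not overlap for 12 genes that were higher and 6 that were lower, against 38.3% of all tested genes in either direction. Neighbours on the map can share reads, so the 37 genes are not independent measurements, and across the 36 neighbouring pairs the fold changes had a Pearson r of 0.35, given as a description.

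**Figure D2:**
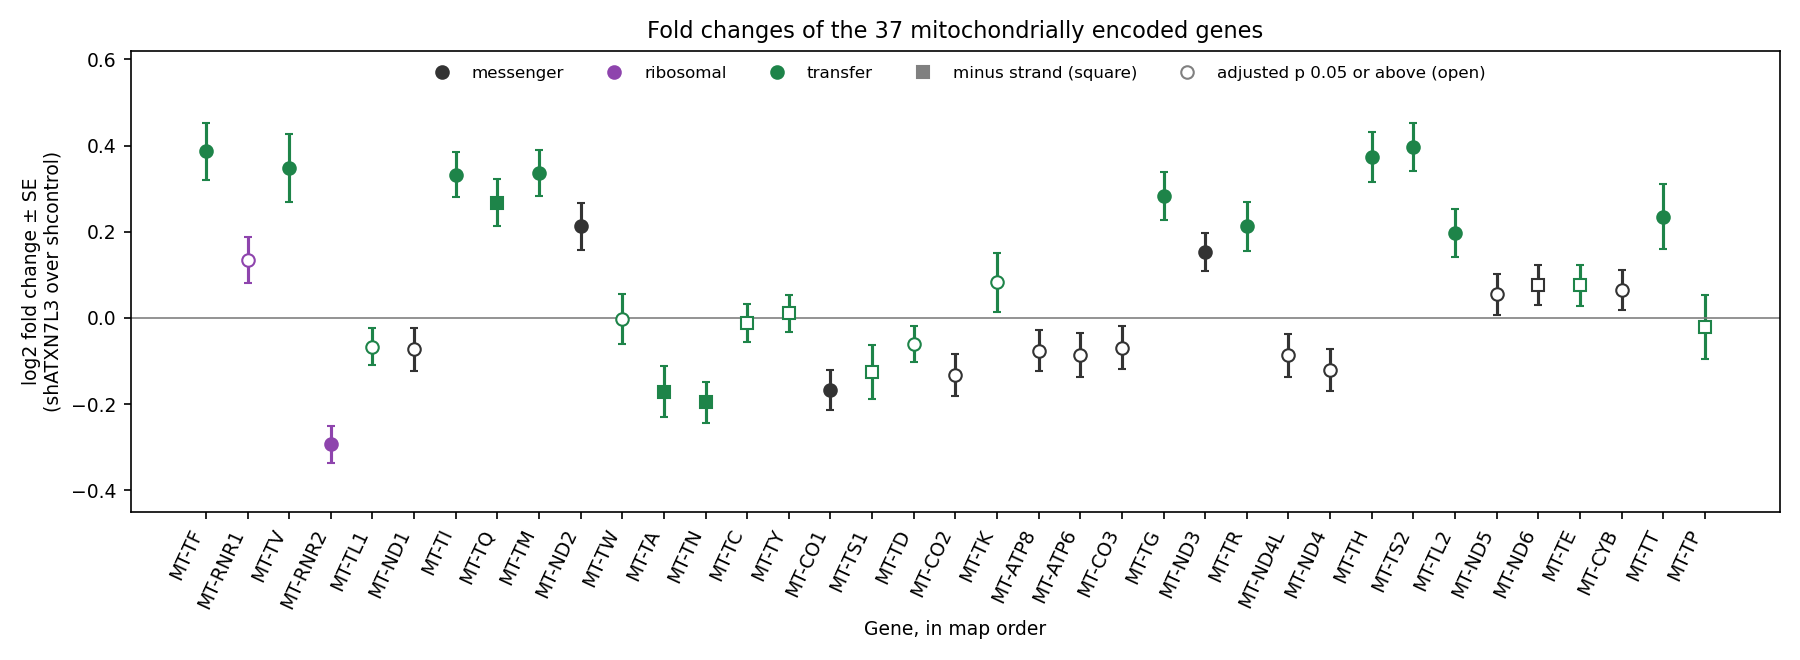
Log2 fold change (shATXN7L3 over shcontrol) with its standard error for each mitochondrial gene in map order, coloured by class, with squares for the minus strand and open symbols for an adjusted p of 0.05 or above. Filled transfer RNA symbols on the plus strand all lie above 0, the lowest point is MT-RNR2 at -0.29, and the highest is MT-TS2 at 0.40.

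The sequences of 6 transfer RNAs are printed because they show both directions of change on the map: MT-TH, MT-TS2 and MT-TL2 follow each other without a gap between MT-ND4 and MT-ND5 and rose together, MT-TF opens the map of genes and rose, and MT-TN and MT-TA, neighbours on the minus strand, fell. Each is given 5′ to 3′ in the sense of the gene, from the GENCODE 29 transcripts of GRCh38, with the anticodon in capitals.
MT-TH, histidine, MT:12138-12206, plus strand: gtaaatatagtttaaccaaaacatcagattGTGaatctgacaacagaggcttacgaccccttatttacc
MT-TS2, serine, MT:12207-12265, plus strand: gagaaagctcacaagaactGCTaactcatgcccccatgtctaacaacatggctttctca
MT-TL2, leucine, MT:12266-12336, plus strand: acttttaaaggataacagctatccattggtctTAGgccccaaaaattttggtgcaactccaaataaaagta
MT-TF, phenylalanine, MT:577-647, plus strand: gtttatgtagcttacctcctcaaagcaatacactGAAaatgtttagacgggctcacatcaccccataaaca
MT-TN, asparagine, MT:5657-5729, minus strand: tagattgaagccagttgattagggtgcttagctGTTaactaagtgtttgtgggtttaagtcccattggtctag
MT-TA, alanine, MT:5587-5655, minus strand: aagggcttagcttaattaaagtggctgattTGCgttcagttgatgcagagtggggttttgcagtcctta
At 59 to 75 bases, transfer RNA genes are shorter than any of the messenger genes. Their GC content ran from 23.1 to 48.6% in the 11 that rose, from 41.1 to 43.5% in the 2 that fell and from 23.5 to 49.3% in the 9 that did not pass. Over the 22 transfer RNA genes GC content and log2 fold change had a Pearson r of -0.07, a description over genes that share libraries.

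The ribosomal RNA genes each have a transfer RNA gene before them on the map. MT-RNR2 fell and MT-RNR1 did not pass. MT-RNR2, the RNA of the large mitochondrial ribosomal subunit (MT:1671-3229), had 4788, 4681 and 4528 CPM in shATXN7L3 libraries and 5828, 5738 and 5586 CPM in shcontrol libraries. It fell by 0.29 ± 0.04 on the log2 scale (adjusted p = 4.39e-05, edgeR), with every shATXN7L3 library below every shcontrol library. This call held in all 14 alternatives tried. MT-RNR1, the RNA of the small subunit (MT:648-1601), had 886, 934 and 784 CPM in shATXN7L3 libraries against 819, 763 and 791 CPM in shcontrol libraries. The groups overlapped and its log2 fold change was 0.13 ± 0.05 (adjusted p = 0.0792, edgeR). It passed without shATXN7L3 replicate 3 (adjusted p = 0.0153) and without shcontrol replicate 1 (0.0244), at 0.20 and 0.16 on the log2 scale. The count ratio of MT-RNR2 over MT-RNR1 was 5.41, 5.01 and 5.77 in shATXN7L3 libraries and 7.12, 7.52 and 7.06 in shcontrol libraries, so this ratio within a library, which no scaling can move, was lower in each shATXN7L3 library. Its exact permutation p was 0.1, the smallest that 3 against 3 allows, and 0.156 adjusted over the 14 shares and ratios.

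RNAs that normally carry no poly-A tail were also counted. On a list of 7 of them 4 were tested and none passed with edgeR, with DESeq2 or at an unadjusted p under 0.05, and their summed level was 39.3 to 79.4 CPM in shATXN7L3 libraries and 67.8 to 91.4 CPM in shcontrol libraries. RN7SK, which regulates transcription elongation in the nucleus, had 66.4, 64.5 and 32.9 CPM in shATXN7L3 libraries and 71.0, 54.7 and 79.2 CPM in shcontrol libraries. It was lowest in shATXN7L3 replicate 3, the library in which MT-RNR1 and MT-TF were also at their group's lowest. The ribosomal share of mitochondrial counts was its group's lowest there, 2.37%. The transfer RNA share was its group's highest there, 4.17%, and 2.81% without MT-TK. The part of the RN7SK difference in the results was not tested.

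Among the 13 messenger genes, 2 subunits of complex I rose, 1 subunit of complex IV fell, and 10 did not pass. Calls were 23.1% of the class, near the 24.2% of all tested genes. Among genes with a mean of at least 10 CPM, 32.0% had a call. Levels per length were highest for MT-ATP8, at 94507 CPM per kb in shATXN7L3 libraries and 99599 in shcontrol libraries (means), and lowest for MT-CYB, at 6342 in shATXN7L3 libraries and 6066 in shcontrol libraries. MT-ATP8 is the shortest messenger gene, at 207 bases, and shares 46 of them with MT-ATP6. Reads that reach beyond a short gene can raise its level per length, and this was not tested. The median log2 fold change of the class was -0.07, against 0.01 over all tested genes. Of the messenger counts, complex I genes took 52.4, 52.1 and 52.9% in shATXN7L3 libraries and 49.8, 51.5 and 51.0% in shcontrol libraries. Complex IV genes took 23.9, 23.9 and 23.5% in shATXN7L3 libraries and 26.0, 24.5 and 25.2% in shcontrol libraries. Complex V genes took 20.3, 20.4 and 20.1% in shATXN7L3 libraries against 20.9, 20.8 and 20.5% in shcontrol libraries. The single complex III gene took 3.47, 3.59 and 3.45% in shATXN7L3 libraries against 3.26, 3.21 and 3.26% in shcontrol libraries. None of the 4 overlapped between groups, each with an exact permutation p of 0.1 and 0.156 after adjustment. These 4 parts sum to the whole, so a higher part forces lower ones elsewhere.

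Complex I, the NADH dehydrogenase that feeds electrons into the chain, has 7 subunits on this genome. MT-ND2 (MT:4470-5511) had 16050, 16707 and 16478 CPM in shATXN7L3 libraries against 15055, 14643 and 12799 CPM in shcontrol libraries. It rose by 0.21 ± 0.05 on the log2 scale (adjusted p = 0.00664, edgeR), with no overlap between groups and shcontrol replicate 3 the lowest. Without that library the log2 fold change was 0.14 (adjusted p = 0.00253). MT-ND3 had 2507, 2539 and 2555 CPM in shATXN7L3 libraries and 2265, 2394 and 2177 CPM in shcontrol libraries. It rose by 0.15 ± 0.04 (adjusted p = 0.0158, edgeR), a call that ended without shATXN7L3 replicate 1, 2 or 3 (adjusted p = 0.0568, 0.0585 and 0.084).

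The other 5 complex I genes did not pass. MT-ND1 had 10290, 10757 and 10848 CPM in shATXN7L3 libraries and 11337, 11843 and 10373 CPM in shcontrol libraries. MT-ND4, the gene with the highest counts, had 32147, 33236 and 33265 CPM in shATXN7L3 libraries against 35997, 37750 and 33487 CPM in shcontrol libraries. Its log2 fold change was -0.12 ± 0.05 (adjusted p = 0.0867, edgeR), although its groups did not overlap. MT-ND4L, whose last 7 bases are the first 7 of MT-ND4, had 9279, 8980 and 9244 CPM in shATXN7L3 libraries and 9108, 10425 and 9677 CPM in shcontrol libraries. It passed without shcontrol replicate 1, at -0.13 (adjusted p = 0.0374). MT-ND5 had 23111, 23267 and 24729 CPM in shATXN7L3 libraries and 22440, 23808 and 22192 CPM in shcontrol libraries. MT-ND6, on the minus strand, had 12791, 12790 and 13668 CPM in shATXN7L3 libraries and 12541, 12815 and 11870 CPM in shcontrol libraries. For both of these last genes the groups overlapped, with log2 fold changes of 0.06 ± 0.05 and 0.08 ± 0.05.

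Complex IV is cytochrome c oxidase, which passes electrons to oxygen, and its catalytic core is MT-CO1, MT-CO2 and MT-CO3. MT-CO1 (MT:5904-7445) had 22905, 23394 and 23248 CPM in shATXN7L3 libraries and 26989, 26289 and 24808 CPM in shcontrol libraries. It fell by 0.17 ± 0.05 on the log2 scale (adjusted p = 0.0115, edgeR), with no overlap between groups. Leaving out shATXN7L3 replicate 1 or 3 ended the call (adjusted p = 0.0852 and 0.071). MT-CO2 had 13576, 13898 and 13739 CPM in shATXN7L3 libraries and 16002, 15101 and 14055 CPM in shcontrol libraries. Its groups did not overlap, and at -0.13 ± 0.05 it stood just outside the threshold (adjusted p = 0.0571, edgeR). MT-CO3 had 11977, 12371 and 12198 CPM in shATXN7L3 libraries against 13721, 12732 and 11873 CPM in shcontrol libraries, with overlapping groups. In counts, the ratio of MT-ND2 over MT-CO1 was 0.701, 0.714 and 0.709 in shATXN7L3 libraries and 0.558, 0.557 and 0.516 in shcontrol libraries. The exact permutation p of that ratio was 0.1, the smallest possible, and the pair was chosen after its values were seen.

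MT-CYB, cytochrome b of complex III, had 7028, 7457 and 7225 CPM in shATXN7L3 libraries and 7116, 7090 and 6555 CPM in shcontrol libraries, with overlapping groups. Complex V is the ATP synthase, and its membrane subunits MT-ATP8 and MT-ATP6 lie on overlapping frames. The overlap is printed because a read within it fits both genes, and how such reads were counted is not given. The start codon of MT-ATP6 opens it.
MT-ATP8 and MT-ATP6 overlap, MT:8527-8572, plus strand: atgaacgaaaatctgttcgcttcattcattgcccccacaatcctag
It covers 46 of the 207 bases of MT-ATP8. MT-ATP8 had 19324, 19604 and 19760 CPM in shATXN7L3 libraries and 20720, 21637 and 19494 CPM in shcontrol libraries. MT-ATP6 had 21730, 22786 and 22296 CPM in shATXN7L3 libraries and 24907, 24227 and 21816 CPM in shcontrol libraries. Both groups of values overlapped and neither gene passed, at -0.08 ± 0.05 and -0.09 ± 0.05 on the log2 scale.

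The number of messenger genes that fell, 1 of 13, moved with the libraries used: it was 0 without shATXN7L3 replicate 1 or 3, 2 without shcontrol replicate 1, and 7 without shcontrol replicate 3. With no filter it was 3 and with DESeq2 it was 2. Without shcontrol replicate 3, which had the lowest mitochondrial share, MT-ND1, MT-ND4, MT-CO2, MT-CO3, MT-ATP8 and MT-ATP6 passed as lower, as did the transfer RNA gene MT-TS1, with log2 fold changes of -0.12 to -0.22, and 11 of the 37 genes fell in place of 4. Of the 13 messenger genes, 6 have an annotated length that is not a multiple of 3: MT-ND1, MT-ND2, MT-CO3, MT-ND3, MT-ND4 and MT-CYB. In such genes the poly-A tail is known to complete the stop codon, and they include both that rose but not MT-CO1, which fell. The others among them did not pass: MT-ND1 and MT-CO3 were at -0.07, MT-ND4 at -0.12 and MT-CYB at 0.06.

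**Figure D3:**
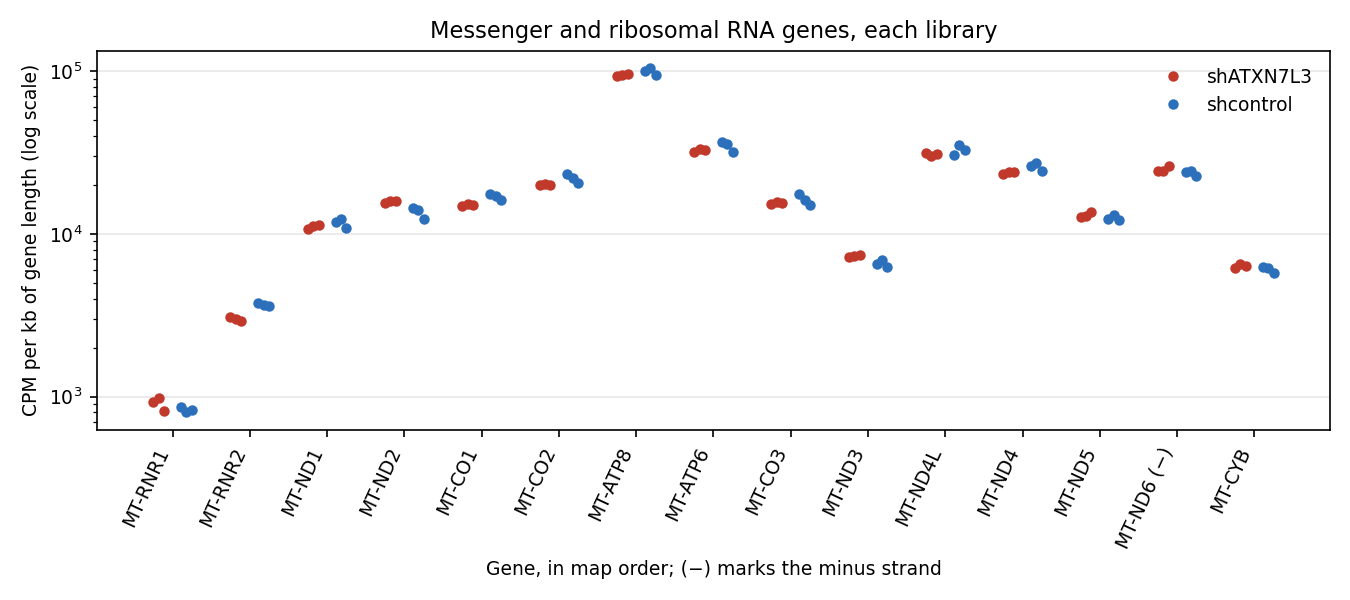
Level of each messenger and ribosomal gene per library, in TMM-scaled CPM per kilobase on a log axis, in map order, with shATXN7L3 points left of shcontrol points. The levels per length span from 829 CPM per kb for MT-RNR1 to 99599 for MT-ATP8 (shcontrol means), a range much wider than any distance between groups. MT-ATP8 has only 207 bases, which can raise its level per length. It overlaps MT-ATP6, and how reads in the overlap were counted is not given.

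Transfer RNA genes were the class with most calls: 11 of 22 rose, 2 fell and 9 did not pass, with a median log2 fold change of 0.14. Calls were 59.1% of the class, beside 24.2% of all tested genes and 32.0% of genes with a mean of at least 10 CPM. On the plus strand 10 of 14 rose and the median was 0.26. None there fell with edgeR, with DESeq2 or at an unadjusted p under 0.05. Of the 8 on the minus strand 1 rose, MT-TQ, 2 fell, MT-TA and MT-TN, and the median was -0.02. The difference between strands was not tested. Whether counting used strand is not given, so the counts of a gene may include reads of RNA from the opposite strand. In the 14 alternatives the number of plus-strand transfer RNA genes that rose was 7 to 10 and none fell in any of them.

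A block of genes that rose was MT-TH, MT-TS2 and MT-TL2, the run of sequence printed above that separates MT-ND4 from MT-ND5. MT-TS2 had 272, 285 and 296 CPM in shATXN7L3 libraries and 196, 234 and 218 CPM in shcontrol libraries. It rose by 0.40 ± 0.06 (adjusted p = 2.21e-05, edgeR). MT-TH had 351, 376 and 393 CPM in shATXN7L3 libraries against 259, 315 and 291 CPM in shcontrol libraries. It rose by 0.37 ± 0.06 (adjusted p = 8.46e-05), and neither gene's groups overlapped. MT-TL2 had 266, 267 and 280.3 CPM in shATXN7L3 libraries and 211, 252 and 246 CPM in shcontrol libraries. It rose by 0.20 ± 0.06 (adjusted p = 0.0129, edgeR), and leaving out shATXN7L3 replicate 3 ended its call (adjusted p = 0.084), while without shcontrol replicate 1 the fold change was 0.12 (0.0382). The messenger genes at either end of the block, MT-ND4 at -0.12 and MT-ND5 at 0.06, did not pass.

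MT-TF, the phenylalanine transfer RNA, lies first on the map and touches MT-RNR1. It had 40.8, 41.3 and 35.8 CPM in shATXN7L3 libraries and 28.3, 29.3 and 32.6 CPM in shcontrol libraries, and rose by 0.39 ± 0.07 (adjusted p = 0.000193, edgeR). MT-TV, the valine transfer RNA, lies between the ribosomal genes. It had 12, 11.6 and 11.7 CPM in shATXN7L3 libraries against 9.11, 9.34 and 9.27 CPM in shcontrol libraries, the lowest counts of the 37 genes, and rose by 0.35 ± 0.08 (adjusted p = 0.00267, edgeR). Neither gene's groups overlapped. MT-TV touches both MT-RNR1, which did not pass (0.13 ± 0.05), and MT-RNR2, which fell. MT-TL1, the leucine transfer RNA on the far side of MT-RNR2, had 526, 536 and 558 CPM in shATXN7L3 libraries and 556, 590.3 and 551 CPM in shcontrol libraries and did not pass.

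MT-TI, MT-TQ and MT-TM stand together between MT-ND1 and MT-ND2, and all 3 rose. MT-TI, for isoleucine, had 174, 173 and 179 CPM in shATXN7L3 libraries and 135, 153 and 129 CPM in shcontrol libraries, a log2 fold change of 0.33 ± 0.05 (adjusted p = 0.000101, edgeR). MT-TQ, for glutamine, had 60.0, 60.8 and 58.9 CPM in shATXN7L3 libraries and 48.0, 54.2 and 47.1 CPM in shcontrol libraries, a log2 fold change of 0.27 ± 0.06 (adjusted p = 0.00118, edgeR). It is on the minus strand, with 3 bases in common with MT-TI on the other strand, and without a stated strand setting reads over both cannot be assigned. MT-TM, for methionine, had 61.0, 61.4 and 60.6 CPM in shATXN7L3 libraries and 44.7, 51.6 and 48.7 CPM in shcontrol libraries, a log2 fold change of 0.34 ± 0.05 (adjusted p = 0.000102, edgeR). MT-TM touches MT-ND2, the messenger gene that rose most.

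MT-TG and MT-TR flank MT-ND3, and all 3 of these genes rose. MT-TG, for glycine, had 102, 93.3 and 107 CPM in shATXN7L3 libraries and 79.5, 88.9 and 80.8 CPM in shcontrol libraries (0.28 ± 0.06, adjusted p = 0.000831, edgeR). MT-TR, for arginine, had 714, 763 and 789.6 CPM in shATXN7L3 libraries and 592, 714 and 650.2 CPM in shcontrol libraries (0.21 ± 0.06, adjusted p = 0.00931, edgeR). For MT-TR shATXN7L3 replicate 1 lay just above shcontrol replicate 2, and leaving out shATXN7L3 replicate 3 ended the call (adjusted p = 0.0774). MT-TT, the threonine transfer RNA beyond MT-CYB, had 32.5, 30.8 and 33.8 CPM in shATXN7L3 libraries and 25.5, 31.9 and 25.1 CPM in shcontrol libraries. Its groups overlapped, and its call, at 0.24 ± 0.08 (adjusted p = 0.0281, edgeR), was lost with DESeq2 (adjusted p = 0.0635). The call was also lost without shATXN7L3 replicate 1 or 3 (adjusted p = 0.0783 and 0.13) and without shcontrol replicate 1 or 3 (0.0642 and 0.0983). Without shcontrol replicate 2 the fold change was 0.35 (0.00104).

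MT-TA and MT-TN, which stand side by side on the minus strand, are the transfer RNA genes that fell. MT-TN had 150.4, 147 and 153 CPM in shATXN7L3 libraries and 179, 175 and 160.4 CPM in shcontrol libraries, a fold change of -0.20 ± 0.05 (adjusted p = 0.00484, edgeR), with no overlap. MT-TA had 74.4, 68.3 and 75.4 CPM in shATXN7L3 libraries against 83.9, 87.9 and 73.8 CPM in shcontrol libraries, with overlapping groups and a fold change of -0.17 ± 0.06 (adjusted p = 0.0419, edgeR). The MT-TA call was lost with DESeq2 (adjusted p = 0.0643), with library size alone (0.119), with the mitochondrial messenger total as scale (0.181), and without any of the 3 shATXN7L3 libraries or shcontrol replicate 1 or 2 (0.056 to 0.231). Next to them on the same strand, the cysteine and tyrosine genes MT-TC and MT-TY share 1 base and did not pass. MT-TC had 982, 979.9 and 1005 CPM in shATXN7L3 libraries and 1004, 1034 and 952 CPM in shcontrol libraries. MT-TY had 930.5, 927 and 952 CPM in shATXN7L3 libraries and 932, 966 and 892 CPM in shcontrol libraries.

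Counts were highest for MT-TK among the transfer RNA genes, with 3024, 2641 and 3053 CPM in shATXN7L3 libraries and 2367, 2956 and 2909 CPM in shcontrol libraries. A low value stood in 1 library of each group, shATXN7L3 replicate 2 and shcontrol replicate 1, and the groups overlapped. MT-TS1, the minus-strand serine gene that touches MT-CO1, had 569.8, 582 and 578 CPM in shATXN7L3 libraries and 705, 634 and 547 CPM in shcontrol libraries. The shcontrol values spread widely, and its fold change of -0.12 ± 0.06 did not pass (adjusted p = 0.164, edgeR). The other transfer RNA genes that did not pass, MT-TW, MT-TD, MT-TE and MT-TP, had fold changes of -0.06 to 0.08. MT-TW, MT-TC and MT-TP, all within 0.03 of 0, change sign when library size alone or the mitochondrial messenger total sets the scale. Setting aside the 7 transfer RNA genes that touch a messenger or ribosomal gene with a call, a selection added after the data were seen, 9 of the 30 remaining genes rose and 4 fell. Calls were 43.3% of these 30, beside 24.2% of all tested genes and 32.0% of genes with a mean of at least 10 CPM. Neighbours among the 30 can still share reads.

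**Figure D4:**
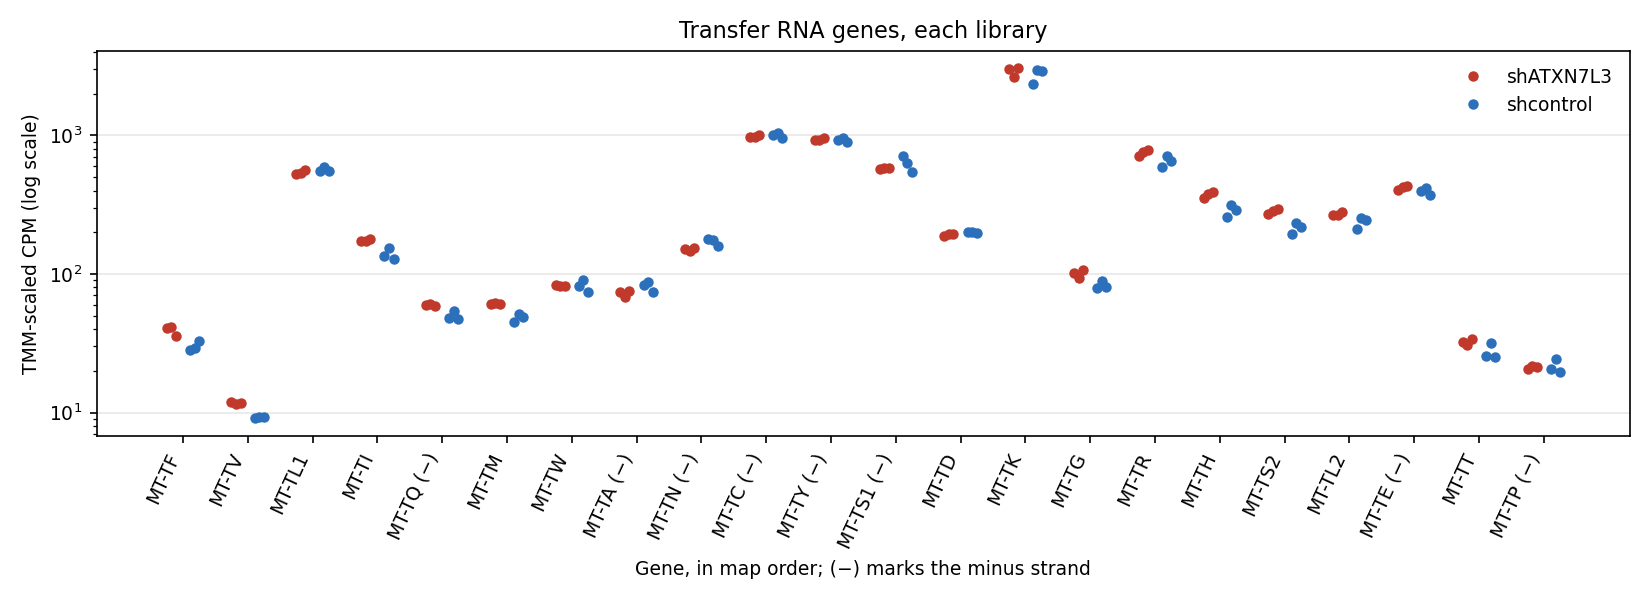
Level of each transfer RNA gene per library, in TMM-scaled CPM on a log axis, in map order, with shATXN7L3 points left of shcontrol points and (−) for the minus strand. Levels run from about 9.24 CPM for MT-TV to about 2744 CPM for MT-TK (shcontrol means), and MT-TH, MT-TS2 and MT-TF show shATXN7L3 points above all shcontrol points.

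The nuclear genome holds copies of mitochondrial sequence, and reads from a member and a near-identical copy can be counted for either. The table held 153 such copies, of which 24 were tested, 2 rose and none fell with edgeR, beside 12.2% and 12% of all tested genes. DESeq2 gave the same counts, and at an unadjusted p under 0.05 there were 4 higher and 1 lower. Together the copies took 0.792, 0.793 and 0.786% of all counts in shATXN7L3 libraries and 0.726, 0.724 and 0.700% in shcontrol libraries. The 3 with the highest counts lie in 1 block on chromosome 1. MTND2P28 (GRCh38 chr1:629640-630683) had 3817, 3768 and 3784 CPM in shATXN7L3 libraries and 2992, 3211 and 3084 CPM in shcontrol libraries, and rose by 0.29 ± 0.04 (adjusted p = 4.29e-05, edgeR). It held 18.4% of the counts of MT-ND2 and itself together, and both rose. MTATP6P1 had 3196, 3351 and 3236 CPM in shATXN7L3 libraries and 3679, 3517 and 3162 CPM in shcontrol libraries, and held 12.8% of the counts of MT-ATP6 and itself. Neither MT-ATP6 nor this copy passed (copy -0.08 ± 0.05, adjusted p = 0.269, edgeR), but the copy, as MT-ATP6 did, fell without shcontrol replicate 3 (-0.15, adjusted p = 0.00359). MTCO1P12 had 298, 297 and 293 CPM in shATXN7L3 libraries and 318, 299 and 306 CPM in shcontrol libraries, and did not pass. The other copy that rose, MTND1P23, had 71.0, 76.7 and 72.7 CPM in shATXN7L3 libraries and 65.6, 61.4 and 57.9 CPM in shcontrol libraries (0.25 ± 0.05, adjusted p = 0.0014, edgeR), whereas MT-ND1 was at -0.07 ± 0.05.

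Between MT-ND2 and MTND2P28, 17 of 1042 aligned bases differ, an identity of 98.4%, and the longest identical stretch is 266 bases. A window around the first of these differences is printed to show how little separates the gene from the copy, with the differing base in capitals. It is T267C, counted from 1 at the 5′ end of the gene, MT-ND2 base first.
MT-ND2, MT:4712-4760, plus strand: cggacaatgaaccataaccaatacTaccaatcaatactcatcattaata
MTND2P28, chr1:629882-629930, plus strand: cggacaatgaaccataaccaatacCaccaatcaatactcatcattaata
In the same block, identities of 7 copies to their members ran from 97.6% to 98.7%. How reads with several matches were treated is not given in the sources used here. Such reads may be counted for the gene, for the copy or for neither. The levels of MT-ND2, MT-ATP6 and the other members with a copy are therefore uncertain by an unknown amount.

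Nuclear genes that maintain, transcribe and process this genome were read from the same fit, in 6 lists of 112 tested genes. In all, 19 rose and 7 fell, 17% and 6.25%, beside 12.2% and 12% of all tested genes, with a median log2 fold change of 0.01 as over all genes. Central factors of mitochondrial RNA synthesis and stability did not pass. TFAM, which packages mitochondrial DNA and starts transcription, was at 0.03 ± 0.05 (adjusted p = 0.665, edgeR), the polymerase POLRMT at 0.01 ± 0.05 (0.917), and LRPPRC, which stabilises the messenger RNAs, at -0.01 ± 0.04 (0.929). These 3 were picked by name and not by the rule for named genes.

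RNA processing and decay was the list with the largest number of rises, with 7 of 23 higher and 1 lower and a median of 0.02. These are 30.4% and 4.35% of the list, beside 12.2% and 12% of all tested genes. LACTB2, an endoribonuclease of the matrix, had 54.1, 53.2 and 51.0 CPM in shATXN7L3 libraries and 39.3, 39.2 and 39.8 CPM in shcontrol libraries, and rose by 0.42 ± 0.05 (adjusted p = 3.16e-06, edgeR). TRNT1, which adds the CCA end to transfer RNAs in mitochondria and in the rest of the cell, had 77.2, 76.5 and 77.6 CPM in shATXN7L3 libraries and 59.2, 63.2 and 68.9 CPM in shcontrol libraries, and rose by 0.27 ± 0.05 (adjusted p = 0.000689). REXO2, which degrades short RNAs, had 37.2, 35.3 and 36.9 CPM in shATXN7L3 libraries and 31.2, 29.2 and 29.9 CPM in shcontrol libraries, and rose by 0.27 ± 0.05 (adjusted p = 0.000872). FASTKD5, needed for the messenger RNA ends that no transfer RNA marks, had 17.3, 19.0 and 16.9 CPM in shATXN7L3 libraries and 21.5, 22.2 and 20.5 CPM in shcontrol libraries, and fell by 0.27 ± 0.07 (adjusted p = 0.00552). The groups did not overlap for any of these 4. ELAC2, which cuts the 3′ ends of transfer RNAs, was at 0.17 ± 0.05 (adjusted p = 0.0105, edgeR) and passed except without shATXN7L3 replicate 1 (0.0606). The number of rises in this list was 4 with DESeq2 and 3 to 7 when 1 library was left out, lowest without shATXN7L3 replicate 1.

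Of 18 genes of mitochondrial DNA maintenance 2 rose and 1 fell, 11.1% and 5.56%, beside 12.2% and 12% of all tested genes. TOP1MT, the mitochondrial topoisomerase, had 93.4, 97.4 and 94.5 CPM in shATXN7L3 libraries and 76.0, 76.4 and 72.3 CPM in shcontrol libraries, and rose by 0.34 ± 0.05 (adjusted p = 1.28e-05, edgeR). PRIMPOL, a primase-polymerase, was at 0.35 ± 0.11 (adjusted p = 0.0241), lost with DESeq2 (0.0897) and in 4 of the fits without 1 library: shATXN7L3 replicate 1 (0.155) or 3 (0.0613), shcontrol replicate 2 (0.0513) or 3 (0.0664). SLC25A33, a carrier of pyrimidine nucleotides, was at -0.52 ± 0.14 (adjusted p = 0.0114, edgeR), -0.34 and past no threshold without shATXN7L3 replicate 3 (0.0828). Of 8 transcription genes 1 rose and 2 fell, 12.5% and 25%, beside 12.2% and 12% of all tested genes. MTERF4, which acts with NSUN4 on the ribosome's large subunit, fell by 0.22 ± 0.05 (adjusted p = 0.00333, edgeR). MTERF2, of the same family, was at -0.28 ± 0.07 (adjusted p = 0.00728), lost without shATXN7L3 replicate 3 (0.0682). TFB1M, which methylates MT-RNR1, was at 0.36 ± 0.13 (adjusted p = 0.0431), a call lost with DESeq2 (0.143), without any of the shATXN7L3 libraries (0.0812 to 0.116) and without shcontrol replicate 3 (0.22 on the log2 scale, 0.217).

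Of 22 genes that modify ribosomal and transfer RNA 3 rose and 1 fell, 13.6% and 4.55%, beside 12.2% and 12% of all tested genes. CDK5RAP1, which thiomethylates mitochondrial transfer RNAs, had 70.0, 69.5 and 69.7 CPM in shATXN7L3 libraries and 87.8, 85.1 and 83.5 CPM in shcontrol libraries, and fell by 0.29 ± 0.05 (adjusted p = 6.85e-05, edgeR). GTPBP3, which modifies the wobble base of several transfer RNAs, RPUSD3 and RPUSD4, pseudouridine synthases, were at 0.29, 0.19 and 0.18 on the log2 scale. Those 3 calls were lost with DESeq2 (adjusted p = 0.0517, 0.0913 and 0.141) and with some of the libraries left out: shATXN7L3 replicate 2 or 3 for GTPBP3 (0.0541 and 0.106), shATXN7L3 replicate 1 or 2 and shcontrol replicate 2 or 3 for RPUSD3 (0.0554 to 0.167), and each shATXN7L3 library and shcontrol replicate 2 for RPUSD4 (0.0691 to 0.16, and 0.055 with no filter). Of 32 translation factors and aminoacyl-tRNA synthetases 4 rose and 2 fell, 12.5% and 6.25%. GARS, the glycyl-tRNA synthetase that serves both mitochondria and cytosol, rose by 0.38 ± 0.04 (adjusted p = 2.12e-06, edgeR), at 158, 162 and 155 CPM in shATXN7L3 libraries and 121, 125 and 120.1 CPM in shcontrol libraries. TARS2, the mitochondrial threonyl-tRNA synthetase, rose by 0.23 ± 0.05 (adjusted p = 0.000838). GFM1, an elongation factor, was at -0.16 ± 0.05 (adjusted p = 0.0135), lost without shATXN7L3 replicate 1 (0.0856) or 3 (0.0637), without shcontrol replicate 2 (0.0639), and with library size alone (0.054).

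Of 9 tested regulators of mitochondrial biogenesis 2 rose and none fell with edgeR or DESeq2 (3 higher and 2 lower at an unadjusted p under 0.05). With edgeR the rises were 22.2% of this short list, beside 12.2% of all tested genes that rose and 12% that fell. ESRRA, an orphan nuclear receptor that activates respiratory genes, rose by 0.30 ± 0.07 (adjusted p = 0.00462, edgeR). GABPA, the DNA-binding subunit of NRF-2, was at 0.19 ± 0.05 (adjusted p = 0.0112), lost without shATXN7L3 replicate 3 (0.0657). Of the 79 nuclear-encoded subunits of complexes I to V, 4 rose, 5.06%, and 3 fell, 3.80%. Both shares were below those of all tested genes, 12.2% and 12%. In complex IV, where MT-CO1 fell, COX6A1 had 184, 186 and 175 CPM in shATXN7L3 libraries and 227, 210.3 and 204 CPM in shcontrol libraries, and fell by 0.23 ± 0.05 (adjusted p = 0.00114, edgeR). In complex I NDUFA1 and NDUFB5 were higher (0.18 ± 0.04 and 0.18 ± 0.05) and NDUFB11 and NDUFV2 lower (-0.22 ± 0.05 and -0.15 ± 0.05), and in complex V ATP5G1 and ATP5J were higher (0.34 ± 0.07 and 0.18 ± 0.05). NDUFA1 and NDUFB5 lost their calls without shATXN7L3 replicate 2 (adjusted p = 0.0501 and 0.0889), ATP5J without shATXN7L3 replicate 1 or 2 (0.107 and 0.073), and NDUFV2 without shATXN7L3 replicate 1 or 3 (0.139 and 0.244) or shcontrol replicate 1 or 2 (0.119 and 0.125). With DESeq2 ATP5J (0.0603) and NDUFV2 (0.0884) did not pass, and NDUFV2 did not with library size alone (0.157) or no filter (0.0514). No subunit of complex II or III passed with edgeR or DESeq2, with 2 in complex II and 1 in complex III at an unadjusted p under 0.05. SDHA and SDHC, the complex II genes with the highest CPM, were at -0.10 ± 0.05 and -0.02 ± 0.05, and UQCRB and UQCRC2 of complex III at 0.10 ± 0.05 and 0.03 ± 0.05.

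**Figure D5:**
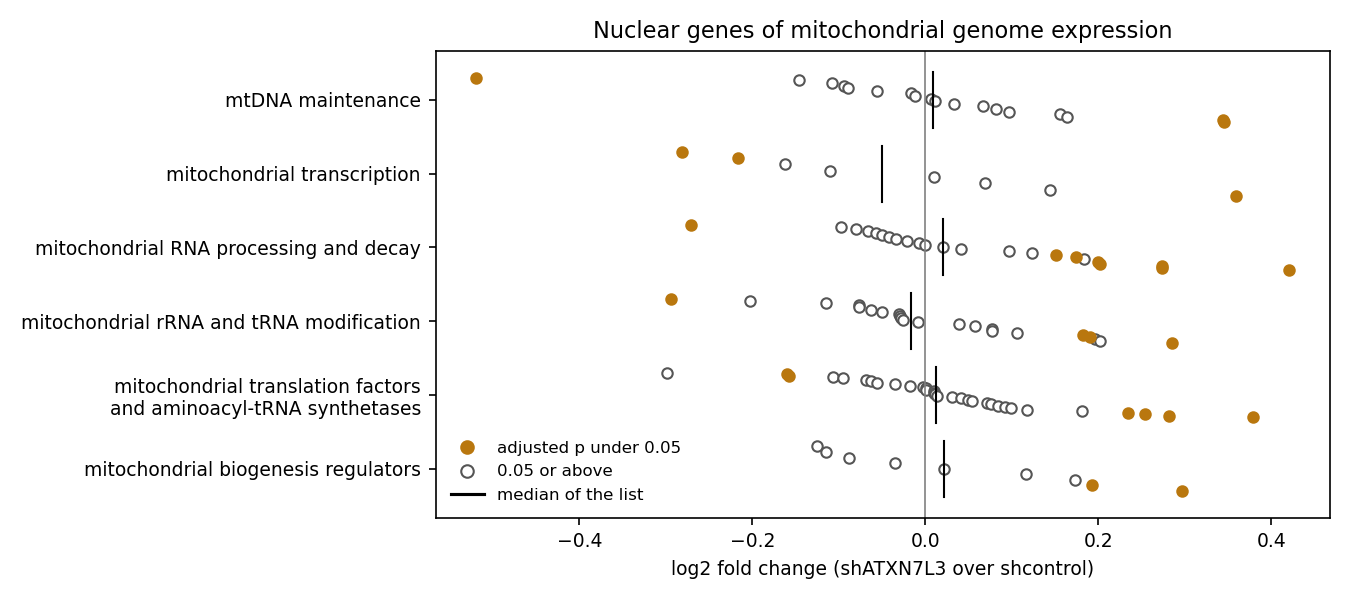
Log2 fold change (shATXN7L3 over shcontrol) of each tested gene in 6 lists of nuclear genes that act on the mitochondrial genome, with filled points for an adjusted p under 0.05 and a bar at the median of each list. The medians lie between -0.05 and 0.02, and all points lie within 0.4 of 0 except SLC25A33 at -0.52 and LACTB2 at 0.42.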

How the data were processed

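RNA was sequenced from 6 HCCLM3 libraries, 3 shATXN7L3 and 3 shcontrol, grouped by the treatment label. The authors deposited 1 table of raw read counts by gene. Their tools, per the submitters' processing notes, include edgeR 3.12.1, Subread 1.5.1 with its featureCounts, STAR 2.5.3a and Trimmomatic 0.36, on GRCh38. Not given in the sources used here are the annotation release, whether counting used strand, and how reads that match several places were handled. How reads over overlapping genes were counted is not given either. Coordinates, strand and length in the table equal those of GENCODE 29 for all 37 genes, and sequences came from its transcripts.

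From the counts, edgeR 4.0.16 in R 4.3.3 was run over all genes: filterByExpr (minimum count 10, total 15), TMM scaling, the quasi-likelihood test by group and Benjamini-Hochberg adjustment over the 17935 genes tested, threshold 0.05. Standard errors were taken as the log2 fold change divided by the square root of F. DESeq2 1.42.0 was an alternative. Shares were compared by two-sided exact permutation tests. The procedure was checked on simulated counts. Other settings were library size alone, DESeq2 size factors, nuclear counts only, the mitochondrial messenger total, no filter, CPM of at least 1 in 3 libraries, a replicate block and leaving out each library.

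All 37 genes were named. Values in every library were given for messenger and ribosomal genes, for transfer RNA genes with a call or among the 5 with the highest counts, for the 3 nuclear copies with the highest CPM, and for part of the genes from each nuclear list chosen by the smallest p (up to 4, or 2 by CPM where none passed). The values of 1 gene that this rule names are not reported here. The genes and lists were chosen with earlier results of these data known.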

Additional observations from a re-analysis of the deposited data

How the results depend on the processing

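Of the 37 mitochondrial genes, 13 rose and 4 fell, and with another scaling, filter, test or block the counts were 12 to 17 higher and 3 to 7 lower: library size alone and the mitochondrial messenger total gave 17 and 3, no filter 14 and 7, DESeq2 12 and 4. Without 1 library 10 to 13 rose and 2 to 11 fell, 2 without shATXN7L3 replicate 1 or 3 and 11 without shcontrol replicate 3. Between 11 and 17 of the 17 calls were kept. All genes called higher numbered 2182 with edgeR and 1405 with DESeq2, and 1543 to 2224 without 1 library. With library size alone 2955 of all genes rose and 1604 fell, and with the mitochondrial messenger total 2315 and 1256, against 2182 and 2150, so the mitochondrial counts moved the same way as those of all genes. In the 6 nuclear lists the 19 rises became 10 with DESeq2 and 10 to 19 without 1 library, and the 7 falls 3 to 9. The mitochondrial share had a log2 ratio of -0.0024 over all counts and -0.046 over TMM effective library sizes, since the TMM factors are larger in shATXN7L3 libraries. With library size alone the median of all genes was 0.05, against 0.01. MT-RNR1 also passed with library size alone (adjusted p = 0.0191), the mitochondrial messenger total (0.0401) and no filter (0.0158). MT-CYB and MT-ND6 passed as higher with library size alone (0.0342 and 0.0217), as did MT-TE (0.0399), and MT-CYB, MT-ND5 and MT-ND6 with the messenger total (0.0287, 0.0435 and 0.0142). MT-CO2 passed as lower with DESeq2 (0.0381), and MT-CO2, MT-ND4 and MT-TS1 did with no filter (0.00179, 0.00248 and 0.0332). Same-numbered libraries did not deviate together (correlations -0.02, 0.01 and 0.04), which cannot show whether they were handled as pairs. With the replicate block 13 mitochondrial genes rose and 4 fell. The cause of these changes was not tested. The widest standard errors were those of MT-TV and MT-TT.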
